A study of Arabidopsis thaliana with 14 samples.

Results

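The class III peroxidases were followed here as 58 loci, chosen by name. Each is a gene listed as a class III peroxidase whose locus code a probe of the array carried. The rule used no measured value, but the members were chosen with earlier results of these data known. By this rule all 58 had a probe, out of 28327 loci named on the array. The filter on dim signals kept 22810 loci, with 56 of the 58 among them. Class III peroxidases are secreted haem enzymes of plants that use hydrogen peroxide to oxidise phenolic compounds, and so cross-link cell wall polymers and build lignin. They can also release reactive oxygen species that loosen walls, and many members are known from roots, where they act in root hairs and in the lignified Casparian strip of the endodermis. The 2 members left out were AT1G14550, which all arrays left at or near background, and RHS18 (AT5G22410), a root hair specific gene that was well above background on 2 arrays in quad and on 2 in WT.

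The compared plants were the quadruple mutant bri1brl1brl3bak1 (quad), and Col-0 wild type (WT). The mutated genes encode the co-receptor BAK1 and the receptors BRI1, BRL1 and BRL3 of brassinosteroids (BRs). These are steroid hormones that promote cell elongation and wall growth. Plants, 28 days old by the series' text, were sampled on day 0 and then on days 2, 4 and 6, either with water withheld (drought) or watered, which gives 7 conditions. Quad and WT RNA of a condition shared an Agilent 2-colour array, with 2 arrays per condition and the dyes exchanged between them, so replicate and dye cannot be told apart. The labels name whole plants, and the study's methods speak both of entire plants and of several rosettes making up each replicate.

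Ratios are given as log2(quad/WT), so that a positive value means a higher signal in quad, and levels as log2 normalised intensity of a gene's own probe. A gene was called where the limma adjusted p was under 0.05 and the change was over 1.5 on the log2 scale, and p-values were adjusted over all 22810 genes. Array number (n = 2 per condition) limits the precision. BAK1 was lower in quad on all 14 arrays (-2.26 to -1.71), as were BRL1 (-2.11 to -0.45) and BRL3 (-1.6 to -0.63), whereas BRI1 lay between -0.03 and 0.79 (below 0 on 1 array). The position of the BRI1 probe against the mutation was not checked. Root markers were measured in these plants (11 of 11 on the list passed the filter) beside leaf markers (8 of 8). In a sample of whole plants, fewer cells of a type and less RNA per cell cannot be told apart.

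Most of the family was detected, and the replicates agreed closely over the members. Of the 58 loci, 34 were well above background on all 14 arrays in both genotypes. Over the 56 measured members replicate ratios had an r of 0.821 (day 0) to 0.971 (day 2 water) within a condition, a description across genes that share an array. Of the 56 members, 18 were called in quad against WT in at least 1 condition, 24 were called in at least 1 contrast of any kind, and 32 in none. Across all genes, 866 of 22810 were called in at least 1 condition. Over contrasts of any kind the count for all genes is not given, so the 24 and 32 have no share to be read against. The 32 members never called stayed between -1.31 and 1.49 over the 7 conditions.

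**Figure D1:**
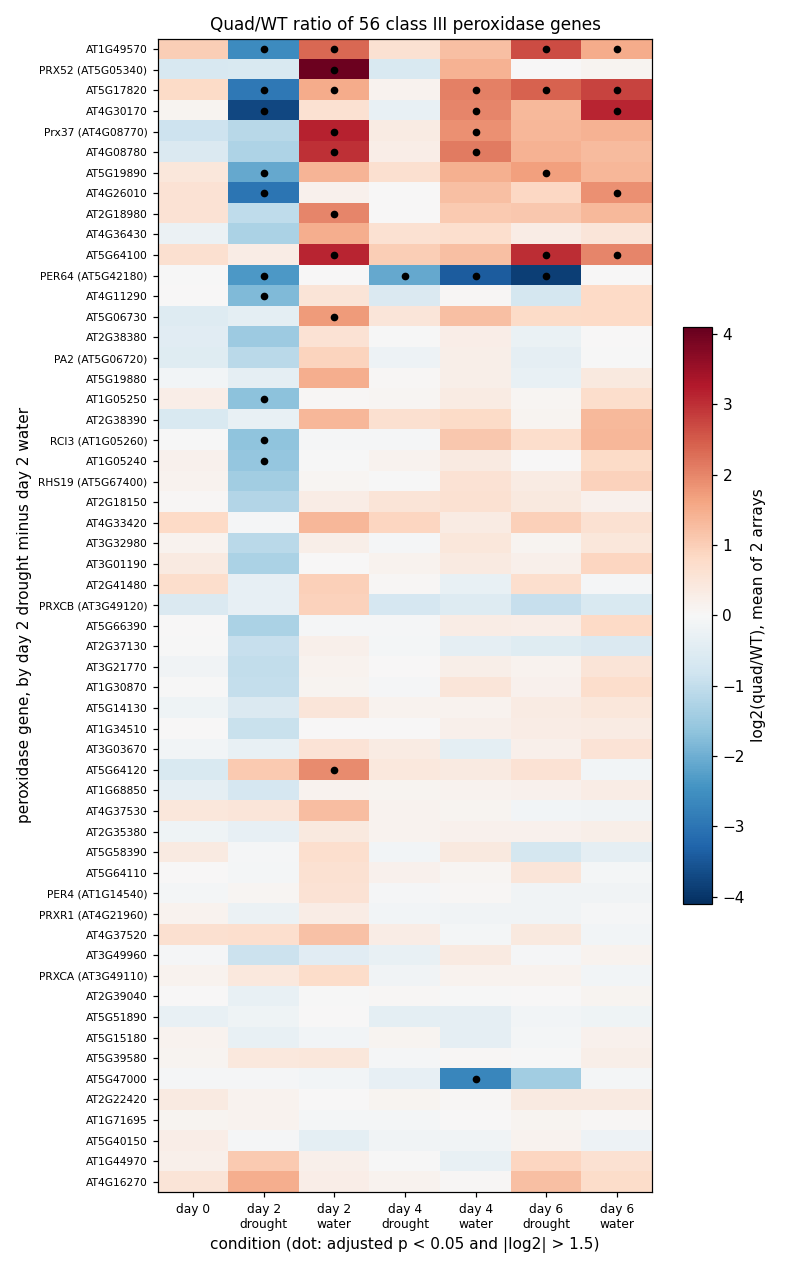
Colour gives the mean log2(quad/WT) of 2 arrays for 56 peroxidase genes (rows, ordered by the day 2 drought minus day 2 water difference) in 7 conditions (columns), and a dot marks a called value. Dots at day 2 drought lie on blue cells (-3.72 to -1.58) and dots at day 2 water on red cells (1.53 to 4.03), while PER64 is blue in 4 conditions.

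No peroxidase passed both limits before drought. At day 0, 0 of 56 members were called (limma; 27 had an unadjusted p under 0.05, 16 of them higher in quad), against 0.737% of all genes. Beside so small a share, 0 of 56 does not set the members apart. By limma adjusted p alone 17 members passed, 10 of them higher in quad and 7 lower, against 10.1% of all genes. The member values ran from -0.85 to 1.01 with a median of 0.02, and the median over all genes was 0. The lowest was Prx37 (AT4G08770), an enzyme of vascular tissue linked to wall phenolics and growth, and the highest was AT1G49570.

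After 2 days of drought the called peroxidases were all lower in quad. Of the 56 members 10 were called, against 0.802% of all genes called lower, and 45 of 56 had a value below 0. The member median was -0.6, with -0.58 and -0.62 on the 2 arrays, against -0.01 over all genes. The called members were AT4G30170, AT4G26010, AT5G17820, AT1G49570, PER64 (AT5G42180), AT5G19890, AT4G11290, AT1G05250, RCI3 (AT1G05260) and AT1G05240. Counts rested on the offset of 50 in the background correction, which draws ratios of dim probes towards 0: with an offset of 10, 16 members were called lower and 1 higher. For this and the later alternative settings the share of all genes called is not given.

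AT4G30170 was among the members lowest in quad at day 2 drought, and had the lowest ratio of those well above background in both genotypes. Its log2 intensities were 6.38 and 7.07 in quad, against 10.37 and 10.52 in WT. The genotypes did not overlap, and the ratios of the 2 arrays were -3.99 and -3.45 (mean -3.72, SE 0.134, limma adjusted p 2.97e-08). AT5G17820 read 7.24 and 7.85 in quad, against 10.62 and 10.35 in WT, a ratio of -2.94 (SE 0.183, limma adjusted p 7.03e-07). AT1G49570 read 6.94 and 7.04 in quad, against 9.43 and 9.68 in WT, a ratio of -2.57 (SE 0.115, limma adjusted p 9.57e-08). In each of these genes the WT arrays were the high ones and both quad arrays were low.

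AT4G26010 was not well above background in quad at day 2 drought. Its log2 intensities were 5.95 and 6.43 in quad, against 9.26 and 9.06 in WT, so it was at least 7.43-fold lower in quad (fitted ratio -2.98, SE 0.159, limma adjusted p 2.5e-07). The bound sets the dim channel at the lowest signal that counted as well above background, or at its own value where that was higher.

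PER64, which takes part in lignifying the Casparian strip, was lower in quad than in WT at day 2 drought (ratio -2.35, SE 0.371, limma adjusted p 0.000858). Its log2 intensities were 6.63 and 6.97 in quad, against 9.08 and 9.24 in WT. Among genes of the same structure, CASP1, a membrane protein that marks where the strip forms, was called lower too (-2.42 and -2.33 on the 2 arrays). Of the 8 Casparian strip genes measured out of 9 listed, 7 had a value below 0, with a median of -0.68. In the other conditions where PER64 was called lower the list did not keep to 1 side of 0. At day 4 water 8 of 8 were above 0 (median 0.23) and at day 6 drought also 8 of 8 (median 0.38). At day 4 drought 3 of 8 were above 0 and 5 below (median -0.04). CASP1 was called higher at day 6 water (1.93 and 1.53), where 8 of 8 were above 0 (median 0.62) and the PER64 levels of the genotypes overlapped.

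The neighbouring genes AT1G05240, AT1G05250 and RCI3 were called lower at day 2 drought in company. AT1G05240 read 6.03 and 6.36 in quad, against 7.91 and 7.64 in WT, and was at least 2.91-fold lower in quad, where it was not well above background. AT1G05250, which RefSeq also lists as PRX2, a peroxidase linked to stem lignin, was at least 2.99-fold lower in quad (array ratios -1.83 and -1.55). RCI3, named as a cold-inducible gene and known for hydrogen peroxide production under potassium shortage, was measured in both genotypes at 9.05 and 9.29 in quad, against 10.82 and 10.84 in WT (-1.65, SE 0.114, limma adjusted p 1.59e-06). Without replicate 1 of day 2 drought the value of AT1G05240 was -1.28, short of the log2 limit. RHS19 (AT5G67400), a root hair specific gene, had -1.76 and -1.1 on the 2 arrays and was not called (-1.43).

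Root markers were also low in quad in these samples, as were leaf markers, while flower markers were high. At day 2 drought 5 of 11 root markers were called lower in quad and 10 had a value below 0, with a median of -1.06. The summed linear intensity of the 11 root markers was 17800 to 18200 in quad, against 22500 to 26200 in WT. AT1G52050, AT1G52060 and AT1G52070 were not well above background in quad, while all 11 were above it in WT. Of 8 root hair genes 8 were below 0 (median -0.88), with a summed intensity of 551 to 653 in quad, against 1150 to 1210 in WT. EXPA7, a root hair expansin, was at least 2.8-fold lower in quad. On both arrays 0 of the 8 were well above background in quad, against 8 of 8 in WT. Of the 8 leaf markers 6 were below 0 (median -0.45) and 2 were called lower, with a summed intensity of 74800 to 79800 in quad, against 131000 to 143000 in WT. Of the 6 flower markers 6 were above 0 (median 0.65, 0 called, 5 with an adjusted p under 0.05), summing to 6440 to 7360 in quad, against 3430 to 4420 in WT. The part of root, leaf or flower content in the peroxidase values was not tested.

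In watered plants of day 2 the called peroxidases were all higher in quad. At day 2 water 9 of 56 members were called, each of them higher in quad, against 1.58% of all genes called higher, and 47 of 56 members had a value above 0. The member median was 0.48, with 0.48 and 0.44 on the arrays, and the median over all genes was 0.01. The called members were PRX52 (AT5G05340), Prx37, AT5G64100, AT4G08780, AT1G49570, AT2G18980, PRX71 (AT5G64120), AT5G06730 and AT5G17820. With the intensities that the scanner software had corrected, which carry no offset, 18 were called higher and 1 lower.

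PRX52, an enzyme of lignin formation in stem fibres, stood higher in quad at day 2 water than any other member well above background in both genotypes. Its log2 intensities at day 2 water were 11.64 and 11.69 in quad, against 7.46 and 7.81 in WT (4.03, SE 0.197, limma adjusted p 9.14e-08). Prx37 read 10.1 and 9.9 in quad, against 6.95 and 6.72 in WT (3.16, SE 0.129, limma adjusted p 2.38e-08). For both genes the quad arrays stood far above the WT arrays, with no overlap. AT5G64100 read 11.77 and 11.67 in quad, against 8.58 and 8.64 in WT (3.11, SE 0.205, limma adjusted p 6.34e-07). AT4G08780, the neighbour of Prx37, had array ratios of 3.12 and 2.89 (3.01, SE 0.108, limma adjusted p 1.11e-08).

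The remaining called members at day 2 water were higher in quad too. AT1G49570 read 9.02 and 8.49 in quad, against 6.39 on each array in WT, where it was not well above background, so it was at least 5.08-fold higher in quad (limma adjusted p 9.14e-08). AT2G18980 had array ratios of 2.14 and 1.86. PRX71, known for lignin formation and for restricting cell size, had 2.12 and 1.77 (1.94, SE 0.182, limma adjusted p 9.87e-06). AT5G06730 was higher in quad than in WT by 1.74 and AT5G17820 by 1.53. The call of AT5G17820 lay at the limit and was lost with slide as a random block and without replicate 2 of that condition, where its value was 1.5 after rounding. Root markers were higher too, with 10 of 11 above 0 (median 0.7, 2 called) and a summed intensity of 22500 to 23900 in quad, against 13500 to 15300 in WT. Root hair genes were not, with a median of 0.03 and 0 of 8 well above background on both arrays in either genotype. Leaf markers lay the other way, with 8 of 8 below 0 (median -0.63), 7 of them with an adjusted p under 0.05 and 0 called, and a summed intensity of 73000 to 80500 in quad, against 133000 to 139000 in WT. The part of root and leaf content was not tested.

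On day 4 the called members were fewer. At day 4 drought 1 of 56 was called, PER64, against 0.127% of all genes called lower, and the member median was 0.03. PER64 read 8.66 and 7.88 in quad, against 10.13 and 10.62 in WT, with array ratios of -1.47 and -2.74 (-2.1, SE 0.371, limma adjusted p 0.00541). Without replicate 2 of day 4 drought this call was lost, with a value of -1.47 and an adjusted p of 0.312.

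At day 4 water 4 members were called higher in quad and 2 lower, against 0.14% and 0.899% of all genes. The higher ones were AT4G08780 (array ratios 1.96 and 2.29, SE 0.108), AT5G17820 (1.83 and 2.33, SE 0.183), AT4G30170 (1.8 and 2.21, SE 0.134) and Prx37 (1.65 and 2.1, SE 0.129), with limma adjusted p between 1.32e-07 and 9.89e-06. With the scanner-corrected signals 15 members were called higher and 2 lower. The 4 higher members named above were well above background in both genotypes. Their quad arrays lay above their WT arrays, for instance 9.38 and 9.41 in quad against 7.58 and 7.2 in WT for AT4G30170. The root markers BGLU21, an endoplasmic reticulum body beta-glucosidase, and BGLU22 were called higher there as well (2.75 and 3.48, and 1.97 and 2.66), and the 11 root markers summed to 23700 to 24700 in quad, against 13000 to 15500 in WT. The part of root content was not tested.

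PER64 and AT5G47000 went the other way at day 4 water. PER64 read 8.08 and 8.32 in quad, against 11.6 and 11.64 in WT (-3.42, SE 0.371, limma adjusted p 5.73e-05). AT5G47000 read 5.95 and 6.41 in quad, where it was not well above background, against 8.92 and 8.77 in WT, and was at least 6.36-fold lower in quad (limma adjusted p 1.77e-07). Neither gene followed the root markers, which were higher in quad. The flower list had a median of -0.84 there, with 6 of 6 genes below 0, and MYB21, a factor of petals and stamens, was at least 12.2-fold lower in quad. The 6 flower genes summed to 5050 to 5870 in quad, against 10100 to 10500 in WT, and flower content was not tested as a part of either value.

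**Figure D2:**
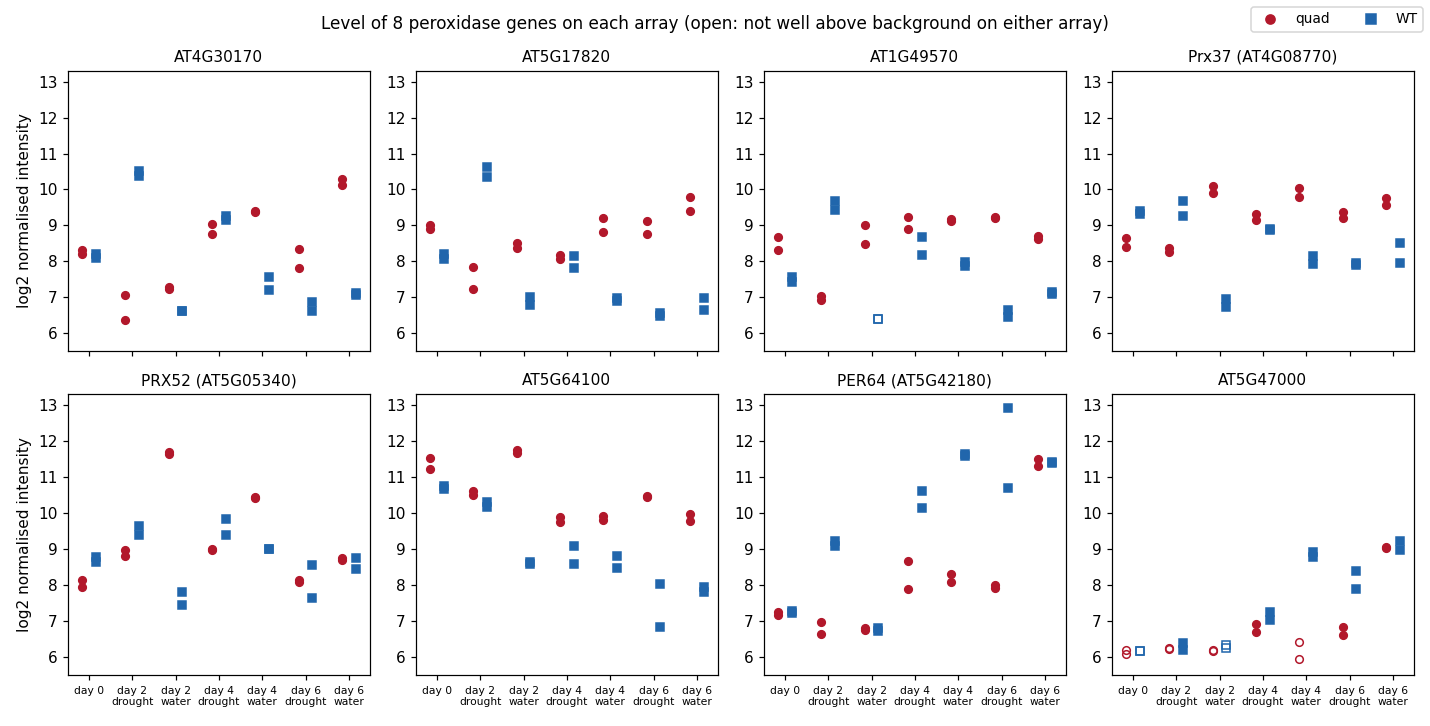
The log2 normalised intensity of 8 peroxidase genes is drawn for each array by condition, with quad as red circles left of WT as blue squares, and open symbols where neither array of that genotype was well above background. AT4G30170 lies at 6.38 and 7.07 in quad against 10.37 and 10.52 in WT at day 2 drought, and the order is reversed at day 6 water.

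On day 6 the called peroxidases were mostly higher in quad in both water regimes. At day 6 drought 4 of 56 members were called higher and 1 lower, against 0.136% and 0.307% of all genes, and the member median was 0.19. With an offset of 10 there were 9 higher and 2 lower. AT5G64100 read 10.45 and 10.47 in quad, against 6.84 and 8.04 in WT (3.02, SE 0.205, limma adjusted p 4.52e-06). AT1G49570 read 9.2 and 9.23 in quad, against 6.45 and 6.65 in WT (2.66, SE 0.115, limma adjusted p 1.55e-07). These genes had no overlap between the genotypes, and the quad arrays were close to each other. AT5G17820 was higher in quad than in WT by 2.41 (SE 0.183, limma adjusted p 9.03e-06) and AT5G19890 by 1.67 (SE 0.184, limma adjusted p 0.000121).

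PER64 was the member lower in quad at day 6 drought, and its replicates differed. It read 7.91 and 7.99 in quad, against 10.71 and 12.93 in WT. The quad arrays were close to each other and the WT arrays far apart, without overlap between the genotypes. The array ratios were -2.81 and -4.94 (-3.87, SE 0.371, limma adjusted p 4.81e-05). AT5G47000 had -1.28 and -1.56 and was short of the log2 limit (-1.42). MYB21 was called lower there (-1.62 and -1.42) and at day 4 drought (-0.63 and -2.38), while the flower list's other genes had no call. At day 6 drought 5 of the 6 flower genes were above 0, all 5 with a limma adjusted p under 0.05. At day 4 drought 4 of 6 were above 0. The medians of the 6 flower genes were 0.54 at day 6 drought and 0.01 at day 4 drought, and flower content was not tested as a part of the PER64 values.

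At day 6 water 5 members were called, each higher in quad, against 0.316% of all genes called higher, and the member median was 0.39. This count rested on the offset too, with 12 called higher at an offset of 10 and 17 with the scanner-corrected signals. AT4G30170 read 10.28 and 10.13 in quad, against 7.06 and 7.13 in WT (3.11, SE 0.134, limma adjusted p 1.02e-07). AT5G17820 read 9.41 and 9.79 in quad, against 6.66 and 6.97 in WT (2.78, SE 0.183, limma adjusted p 2.62e-06). AT5G64100 was higher in quad than in WT by 1.99 (SE 0.205, limma adjusted p 5.96e-05), AT4G26010 by 1.88 (SE 0.159, limma adjusted p 1.42e-05) and AT1G49570 by 1.53. PER64 had 11.51 and 11.3 in quad, against 11.42 and 11.4 in WT, so the genotypes overlapped in the condition where its quad level was highest. Root markers at day 6 water were above 0 in 11 of 11 genes (median 1.22, 5 called), with sums of 21500 to 21700 in quad, against 11700 to 13400 in WT. At day 6 drought 9 of 11 were above 0 (median 0.86, 2 called), with sums of 18300 to 20000 in quad, against 11700 to 12900 in WT. Leaf markers were below 0 in 8 of 8 genes at day 6 water (median -0.43), with sums of 79600 to 95300 in quad, against 121000 to 132000 in WT. At day 6 drought 7 of 8 were below 0 (median -0.51), with sums of 109000 to 124000 in quad, against 155000 to 246000 in WT. The part of root and leaf markers in the peroxidase values was not tested.

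**Figure D3:**
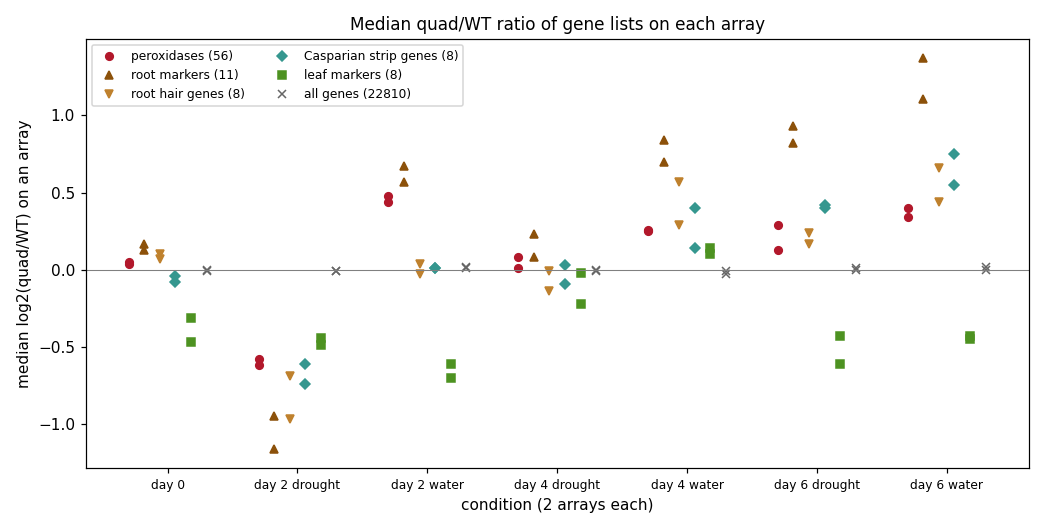
Each symbol is the median log2(quad/WT) of a gene list on 1 array, for 2 arrays in each of 7 conditions. The peroxidase medians lie at -0.58 and -0.62 at day 2 drought and between 0.44 and 0.48 at day 2 water, on the same side of 0 as the root marker medians, while the medians of all genes stay between -0.03 and 0.02.

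Over the 7 conditions, 1 member was called higher in quad and 1 lower on average, against 0.0307% and 0.0438% of all genes. AT5G64100 was higher in quad on 14 of 14 arrays, from 0.3 to 3.61, and averaged 1.62 (SE 0.0773, limma adjusted p 3.18e-08). PER64 was lower on 10 of 14 arrays, from -4.94 to 0.1, and averaged -1.68 (SE 0.14, limma adjusted p 2.38e-06). The mean of PER64 sets 4 conditions in which it was called lower in quad beside 3 in which the genotypes were close.

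Several members changed side between conditions. AT5G17820 was called higher in 4 conditions and lower in 1, AT1G49570 higher in 3 and lower in 1, AT4G30170 higher in 2 and lower in 1, and AT4G26010 and AT5G19890 higher in 1 and lower in 1. In all, 5 of 56 members were called in both directions, and 80 of 22810 genes overall. Over the 56 members the ratios of day 2 drought correlated with those of day 6 water at r = -0.61, against 0.18 over all genes, and those of day 4 water with those of day 6 drought at 0.8, against 0.4. Among all pairs of conditions these were the lowest and the highest r over the members. Day 2 water against day 2 drought, for instance, had 0, against 0.01 over all genes. These correlations are across genes and come from separate arrays, with probes in common.

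How the response to drought differed between the genotypes was read from the drought minus water difference of log2(quad/WT). At day 2, 22 of 56 members were called and every called difference was negative, against 2.54% of all genes called lower. The member median was -1.25, against -0.03 over all genes, and 50 of 56 members were below 0. The differences are tested within a fit in which each condition has 2 arrays, and the arrays of day 2 lay on a shared slide within each replicate.

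Large day 2 differences were those of AT1G49570 (-5.12 and -4.74 in the replicates, -4.93, SE 0.163, limma adjusted p 4.69e-09), PRX52 (-4.58 and -4.71, SE 0.278, adjusted p 4.17e-07), AT5G17820 (-4.88 and -4.07, SE 0.258, adjusted p 2.99e-07) and AT4G30170 (-4.66 and -4.05, SE 0.189, adjusted p 3.68e-08). Prx37 (-4.12 and -4.47) and AT4G08780 (-4.28 and -4.24) came next. All 6 had the same sign in both replicates. The other 16 ran from -3.51 for AT5G19890 to -1.51 for RHS19. Among them AT4G36430 had -2.9 and -2.69, AT2G38380 -2.22 and -1.9, and its neighbour AT2G38390 -1.77 and -1.59. PA2 (AT5G06720), also listed as PRX53, had -2.04 and -1.99, and its neighbour AT5G06730 -2.23 and -2.03. Without replicate 1 of day 2 drought, RCI3 (-1.49), AT1G05240 (-1.25) and RHS19 (-1.18) were short of the limit. AT1G05240, AT1G05250 and AT4G26010 were not well above background at day 2 water in either genotype, so their differences rest on the drought arrays, and AT1G49570 was not above it there in WT.

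At day 4, 1 member was called higher in the drought minus water difference and 5 lower, against 0.623% and 0.162% of all genes. AT4G30170 had -2.04 and -2.6, PRX52 -1.81 and -2.27, AT5G17820 -1.79 and -2.05, AT4G08780 -1.66 and -2.03 and Prx37 -1.22 and -1.83. AT5G47000 had 2.85 and 1.83 (2.34, SE 0.198, limma adjusted p 3.77e-05). In replicate 1 the day 4 drought and day 4 water arrays lay on different slides, whereas in replicate 2 they shared a slide, and each of the 6 had the same sign in both. The value of Prx37 (-1.52) was short of the limit without replicate 2 of day 4 water (-1.29) or day 4 drought (-1.45), and with spots of a local background defect left out (-1.36).

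At day 6, 3 members were called lower, against 0.333% of all genes. PER64 had -2.9 and -4.84 (-3.87, SE 0.525, limma adjusted p 0.00151), AT4G30170 had -1.73 and -1.81, and AT4G11290 had -1.74 and -1.29. The call of AT4G11290 (-1.51) was lost without replicate 2 of day 6 water (-1.39) or replicate 1 of day 6 drought (-1.16). With the scanner-corrected signals AT4G30170 fell short of the limit at -1.45.

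The next question was which genotype moved. Drought was therefore set against water within each genotype on the single channels, over 22641 genes. In quad 5 of 56 members were called at day 2, each lower under drought, against 0.473% of all genes called lower. In WT 15 of 56 were called at day 2, each higher under drought, against 0.892% of all genes called higher. The member median was -0.34 in quad and 0.75 in WT, and both all-gene medians lay within 0.02 of 0.

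At day 2, 42 of 56 members (75%) were lower under drought in quad and higher under drought in WT, against 34.3% of all genes. Of the 22 members with a called difference, 15 were called in WT, 5 in quad, 4 in both and 6 in neither. The 6 called in neither were AT4G36430, AT5G06730, AT2G38380, PA2, AT2G38390 and RHS19. The 4 called in both were PRX52, AT1G49570, Prx37 and AT4G08780. Quad and WT shared arrays, so these values are set side by side and their likeness was not tested.

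The WT rises at day 2 were led by AT4G30170, AT5G17820, AT1G49570 and AT4G26010. AT4G30170 read 10.37 and 10.52 under drought in WT, against 6.62 and 6.63 with water (3.82, SE 0.177, limma adjusted p 1.82e-11). AT5G17820 read 10.62 and 10.35 under drought, against 7 and 6.8 with water (3.58, SE 0.196, limma adjusted p 7.05e-11). The drought arrays were the high ones in both genes, without overlap. AT1G49570 was at least 8.87-fold higher and AT4G26010 at least 6.83-fold higher under drought in WT, since neither was well above background in watered WT plants. The other called members were AT5G19890 (2.68), Prx37 (2.62), AT4G08780 (2.4), PER64 (2.39), PRX52 (1.88), AT4G11290 (1.78), AT5G64100 (1.63), AT2G18980 (1.6) and RCI3 (1.59), with AT1G05250 at least 2.69-fold and AT1G05240 at least 2.62-fold higher, since both were not well above background in watered WT plants. The fitted values of AT1G05240 (1.48) and AT2G18980 (1.41) were short of the limit without replicate 1 and replicate 2 of day 2 drought, in that order.

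The quad falls at day 2 were led by PRX52, which read 8.99 and 8.8 under drought, against 11.64 and 11.69 with water (-2.77, SE 0.211, limma adjusted p 1.69e-08). AT4G08780 fell by 1.86, AT1G49570 by 1.77 and Prx37 by 1.68. AT5G19880 was at least 2.77-fold lower under drought in quad, where it was not well above background on the drought arrays. Without replicate 1 of day 2 water its value was -1.23, against -1.53 with it. Root markers moved alongside in WT, where 5 of 11 were called higher under drought at day 2 (median 1.14), with sums of 22500 to 26200 under drought, against 13500 to 15300 with water. In quad 2 of 11 were called lower (median -0.3), with sums of 17800 to 18200 under drought, against 22500 to 23900 with water. Their part in the peroxidase values was not tested.

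**Figure D4:**
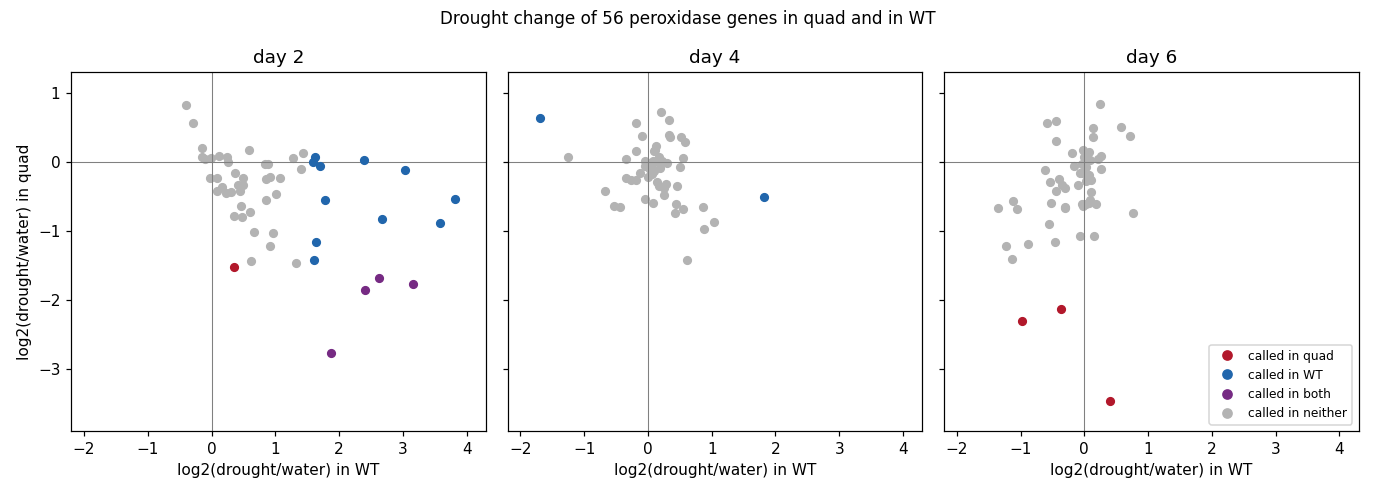
Each point is a peroxidase gene, with log2(drought/water) in quad on the vertical axis and in WT on the horizontal axis, for days 2, 4 and 6. At day 2 most points lie to the right of and below 0 (42 of 56), with 15 called in WT and 5 in quad, and at day 6 the 3 called genes are called in quad.

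On later days few members passed both the adjusted p and the log2 limit within a genotype. In quad 0 of 56 were called at day 4 (limma; 24 had an unadjusted p under 0.05, 6 of them higher), against 0.331% of all genes, and 3 were called lower at day 6, against 0.879%. In WT 1 was called higher and 1 lower at day 4, against 0.053% and 0.172% of all genes. At day 6 in WT 0 were called (limma; 20 had an unadjusted p under 0.05, 3 of them higher), against 0.424%. The member medians were -0.09 in quad and 0.11 in WT at day 4, and -0.32 in quad and -0.03 in WT at day 6. By adjusted p alone 26 members passed in quad at day 6, 22 of them lower under drought, against 18% of all genes, and 14 at day 4, against 5.13%. In WT 15 passed at day 6, against 15.1%, and 7 at day 4, against 2.15%.

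The quad falls at day 6 were those of PER64, AT5G47000 and AT4G30170. PER64 read 7.91 and 7.99 under drought in quad, against 11.51 and 11.3 with water (-3.46, SE 0.409, limma adjusted p 3e-06). AT5G47000 read 6.61 and 6.84 under drought, against 9.05 and 9.03 with water (-2.31, SE 0.156, limma adjusted p 2.27e-09). The drought arrays were the low ones in both genes. AT4G30170 read 8.35 and 7.82 under drought, against 10.28 and 10.13 with water (-2.13, SE 0.177, limma adjusted p 3.12e-08). In WT at day 6 PER64 read 10.71 and 12.93 under drought, against 11.42 and 11.4 with water, so the drought arrays lay on either side of the watered ones. MYB21 was called lower under drought in quad at day 6 as well (-2.62 and -1.92). Of the 6 flower genes 6 were lower under drought in quad (median -0.31) and 6 in WT (median -0.64). The part of flower content was not tested.

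In WT at day 4 AT4G30170 read 9.27 and 9.14 under drought, against 7.58 and 7.2 with water (1.82, SE 0.177, limma adjusted p 1.51e-06). AT5G47000 read 7.03 and 7.25 under drought in WT, against 8.92 and 8.77 with water (-1.7, SE 0.156, limma adjusted p 8.62e-07). Without normalisation between arrays, 11 of the 25 called changes within a genotype lost their call by adjusted p, all 25 with their sign kept. AT5G47000 in WT at day 4 was then -0.61 (adjusted p 0.539). The others lost were PER64 in quad at day 6 (adjusted p 0.0577), AT1G49570, Prx37 and AT5G19880 in quad at day 2, and AT1G05240, AT1G05250, AT2G18980, PRX52, PER64 and AT5G64100 in WT at day 2.

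PER64 and AT5G47000 were both low in the first samples of watered plants and high in the last ones. In watered quad plants PER64 read 7.25 and 7.18 at day 0, 6.82 and 6.74 at day 2, 8.08 and 8.32 at day 4 and 11.51 and 11.3 at day 6. In watered WT plants it read 7.22 and 7.27 at day 0, 6.81 and 6.73 at day 2, 11.6 and 11.64 at day 4 and 11.42 and 11.4 at day 6. Levels above 11 were thus seen on day 6 in watered quad and on days 4 and 6 in watered WT. AT5G47000 was not well above background in watered plants of either genotype at days 0 and 2, nor in quad at day 4, and read 9.05 and 9.03 in quad at day 6. In WT it read 8.92 and 8.77 at day 4 and 9.24 and 8.99 at day 6. Time points were not tested against each other.

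Some further members known from lignin and from defence fell short of a call. PRX72 (AT5G66390) was lower in quad at day 2 drought (-1.21 and -1.36, limma adjusted p 0.000457) and PRX25 (AT2G41480) was higher at day 2 water (1.11 and 0.82, limma adjusted p 9.83e-05), both short of the log2 limit and so not called. At day 2 drought PRX52 had a ratio of -0.61, PRX25 of -0.33 and PRX71 of 1.07. Of the members described here with a role in lignin, PRX71 alone was above 0 in that condition. These members come from no list of lignin genes. PRXCA (AT3G49110, also PRX33) and PRXCB (AT3G49120, also PRX34), peroxidases of the oxidative burst against pathogens, were called in no contrast. PRXCA had 0.53 and 0.96 at day 2 water and PRXCB 1.06 and 0.85. PER4 (AT1G14540) and PRXR1 (AT4G21960) were never called either.

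Against the direction of most members at day 2 drought, AT4G16270 had 1.68 and 1.29 (1.49, limma adjusted p 4.77e-05) and AT1G44970 had 1.24 and 0.91 (1.07). Both were well above background on all arrays, and neither reached the log2 limit. They were chosen for mention after their values were seen.

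Many members lie beside each other in the genome, as 10 neighbouring pairs that hold 18 of the 58 loci, by the order of protein-coding genes in RefSeq. Both genes were measured in 9 of the pairs. AT1G05240 and AT1G05250 differed by 0.08 on average over the 7 conditions (r = 0.99), and Prx37 and AT4G08780 by 0.15 (r = 0.99). Other neighbours parted. AT5G64100 and AT5G64110 differed by 1.44 on average and by 2.52 at day 6 drought, and AT5G19880 and AT5G19890 by 1.02 on average (r = 0.46). The median r over all 1540 pairs of members was 0.39 (quartiles -0.08 and 0.72), over 7 conditions each. Probe sequences were not used here, so signal shared between near-identical copies could not be told from like expression.

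Calls among other genes of wall oxidation were set beside the share of all genes called. NADPH oxidases, which supply the superoxide that becomes hydrogen peroxide, had 7 of 10 genes measured and 0 called in any of the 7 conditions (limma; at most 4 had an unadjusted p under 0.05 in a condition). Their lowest and highest values in quad against WT were -0.55 and 1.12. The shares of all genes called were small, for instance 0.737% at day 0, so 0 of 7 does not set these genes apart. Of 17 laccases, copper enzymes that also polymerise lignin, all were measured. LAC7 was called higher in quad at day 0 (2.4 and 1.65) and at day 2 water (2.88 and 2.13), and no other laccase was called in a condition. At day 0 this was 1 of 17, against 0.737% of all genes called in either direction. At day 2 water it was 1 of 17, against 1.58% of all genes called higher. The laccase medians lay between -0.1 and 0.05. In the drought minus water difference LAC7 (-1.73) and LAC8 (-1.61) were called lower at day 2, against 2.54% of all genes called lower. LAC2 (1.6) was called higher at day 4, against 0.623% of all genes called higher.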

How the data were processed

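The scanner files that the authors deposited hold raw median intensities of 45210 spots in both channels, their local background, intensities corrected by Agilent Feature Extraction 10.5.1.1 and a log10 ratio, per the file headers. The authors also deposited a table of log2 ratios for the 14 arrays, made per the study's methods with limma. It followed the loess-normalised values computed here with a slope of 0.998 to 1.01, as Cy5 over Cy3 on the log2 scale, and served as an alternative. All columns of per-sample values had a sample (0 unused). The members and gene lists were chosen with earlier results of these data known.

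Raw intensities were corrected in limma 3.58.1 (R 4.3.3) by normexp with an offset of 50, which draws ratios of dim spots towards 0, then by loess within and Aquantile between arrays. Control spots (1417) and 1 to 126 outlier spots per array were left out, and 0 spots were saturated. The brightest of the probes stood for a locus, and 2 members had 2 probes. Names came from RefSeq, in which 27785 of 28327 loci matched, and no coordinates are given because the genome build behind the probes was not established. A gene was kept if well above background on both arrays of a genotype and condition.

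Ratios of all 14 arrays were fitted with 7 condition coefficients (lmFit, eBayes; 7 residual and 4.81 prior degrees of freedom). Drought against water within a genotype used the single channels (lmscFit, intraspot correlation 0.25). Both fits were run on simulated data, with noise drawn independently for each gene and array. That setting holds no likeness between arrays of a slide or replicate, so it could not test the effect of such likeness. In the data the slide correlation was 0.4. Members called in at least 1 contrast are named, the largest with their values, and the rest are given by range. The numbers 1 and 2 mark the replicate and the dye orientation, which cannot be told apart. Half-differences between replicates correlated between conditions at 0.0039 to 0.634, over 0.1 in 19 of 21 pairs. Most pairs thus deviated together, but pairing by number required this of every pair, so the fit with the number as a block was run as an alternative. Alternatives were 11 other settings and the omission of each of 14 arrays. Probe and gene sequences were not used here. The values of 1 gene on a related list are not reported here.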

Additional observations from a re-analysis of the deposited data

Results flagged for a closer look

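For 31 values the effect of drought on a peroxidase differed between quad and WT, by the test of the drought minus water difference of log2(quad/WT) itself (limma, adjusted over all genes). At day 2 these were AT1G49570 (-4.93), PRX52 (-4.64), AT5G17820 (-4.47), AT4G30170 (-4.35), Prx37 (-4.30), AT4G08780 (-4.26), AT5G19890 (-3.51), AT4G26010 (-3.16), AT2G18980 (-3.03), AT4G36430 (-2.80), AT5G64100 (-2.79), PER64 (-2.37), AT4G11290 (-2.33), AT5G06730 (-2.13), AT2G38380 (-2.06), PA2 (-2.01), AT5G19880 (-1.88), AT1G05250 (-1.75), AT2G38390 (-1.68), RCI3 (-1.60), AT1G05240 (-1.55) and RHS19 (-1.51). At day 4 they were AT4G30170 (-2.32), PRX52 (-2.04), AT5G17820 (-1.92), AT4G08780 (-1.84), Prx37 (-1.52) and AT5G47000 (2.34), and AT5G47000 was the gene with a positive difference. At day 6 they were PER64 (-3.87), AT4G30170 (-1.77) and AT4G11290 (-1.51). No group held enough arrays for a test of single outlying arrays.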

How the results depend on the processing

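No single value changed sign under any alternative run. Of 94 called values, 11 were lost without normalisation between arrays, all within a genotype, and leaving out an array took 0 to 5. The other alternatives on single values took 0 or 1 of those they could test. The counts of called members depended more on the background correction, since an offset draws ratios of dim probes towards 0. No share of all genes called is given for the alternative settings or left-out arrays, here or in the Results. A higher or lower count under them therefore cannot be read as a stronger or weaker response of the peroxidases. With the signals corrected by the scanner software, 5 members were called at day 0 and 5 for the mean. Under drought and with water, in that order, there were 20 and 19 at day 2, 7 and 17 at day 4, and 17 and 17 at day 6. The same signals gave 13 and 6 for the drought minus water difference at days 4 and 6, then 10, 4 and 9 in quad and 25, 4 and 5 in WT for drought against water at days 2, 4 and 6. With an offset of 10, the counts were 17 at day 2 drought, 11 at day 6 drought, 12 at day 6 water, 6 for the day 6 difference, 9, 1 and 5 in quad at days 2, 4 and 6, and 1 in WT at day 6.

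Over the 34 members above background on all arrays, 3 were called at day 2 drought, 0 and 3 under drought and with water at day 4, 2 and 2 at day 6, and 1 for the mean. Among them 12 and 1 were called for the difference at days 2 and 6, 3 and 0 in quad at days 2 and 6, and 8 and 0 in WT at days 2 and 4. Fewer members were tested there. By adjusted p alone the counts were 17 at day 0 (10.1% of all genes passed), 36 and 32 under drought and with water at day 2 (17.6% and 21.5%), 9 and 20 at day 4 (5.9% and 13.1%), 25 and 29 at day 6 (12% and 14.6%) and 36 for the mean (36.9%). They were 45, 10 and 12 for the difference at days 2, 4 and 6 (21.1%, 4.14% and 4.69%), 21, 14 and 26 in quad (7.42%, 5.13% and 18%) and 35, 7 and 15 in WT (13.6%, 2.15% and 15.1%). Without normalisation between arrays, 2 members in quad at day 2, and 9 and 1 in WT at days 2 and 4, were called. Leaving out spots with a local background defect gave 1 in quad at day 4. The cause of these shifts was not tested otherwise.

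Leaving out single arrays gave 0 called members at day 0 and 2 for the mean. Under drought they gave 9 to 13, 0 to 1 and 5 to 6, and with water 9 to 12, 6 to 7 and 5 to 7, at days 2, 4 and 6. The ranges were 21 to 24, 5 to 6 and 2 to 4 for the difference, 4 to 7, 0 to 0 and 3 to 3 in quad, and 14 to 16, 2 to 2 and 0 to 1 in WT, each at days 2, 4 and 6. The count for WT at day 6 was 1 without either day 6 drought array, and that at day 4 drought was 0 without its replicate 2. With the replicate number as a block, 22 members were called for the day 2 difference and 10 at day 2 drought, and no call changed. The numbers mark the replicate and the dye orientation, which cannot be told apart, and signals near background limit what the dim members show.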
